A study of Mus musculus with 11 samples.

Results

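Hematopoietic stem cells (HSC) that expressed the fusion gene NA10hd were compared with control HSC across all genes, and the account centres on genes outside the cell cycle and Hox groups. The comparison used 8 of the 11 libraries of the study, namely 4 from NA10hd and 4 from control mice, chosen by the genotype in their labels. The other 3 libraries came from mice with the NrasG12D mutation (NV) and entered only an alternative fit. All 13060 genes that passed the filter on low counts, of 37991 in the table, were tested.

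NA10hd joins a part of the nuclear pore protein Nup98 to the homeodomain of Hoxa10. NA10hd mice carried this fusion at the ROSA26 locus behind a stop cassette (NA10hd LSL/+) and were crossed with Vav-Cre, which removes the cassette in blood cells, so that the fusion was made throughout hematopoiesis and not in HSC alone. The strain was C57BL/6 and the mice were 8 weeks old. Control mice were wild type in the labels and littermates in the study's methods. For other experiments the study gives its littermate controls as NA10hd LSL/+, with the unrecombined allele and no mention of Vav-Cre. The effect of the fusion and that of Cre therefore cannot be told apart here. Each library came from an aliquot of 1000 bone marrow HSC in the Lin-CD48-c-Kit+Sca1+CD135-CD150+ gate.

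HSC maintain blood formation for life. Most of them rest outside the cell cycle, with low rates of protein synthesis and of nucleotide production, and FoxO transcription factors are among the regulators of this resting state. Hox transcription factors are high in HSC and early progenitors and fall as cells mature. Nup98-Hox fusions are known from leukemia and from expansion of stem cells in culture.

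The libraries differed in depth and in make-up, which bears on several of the results. Total counts were 7624638 to 12180230 in NA10hd and 5464815 to 12610189 in control libraries. NA10hd replicates 1 and 4 stood apart from the other 6 libraries. They had 14430 and 13859 genes with at least 1 count, against 15361 to 15899 in the others. Pseudogenes took 1.2% and 1.21% of their counts, against 2.10% and 2.44% in NA10hd replicates 2 and 3 and 1.83% to 2.05% in control libraries. Mitochondrial ribosomal RNA stood at 1371 and 1522 CPM (counts relative to the library total, scaled by the TMM method) in them, against 333 to 588 CPM in the other 6. The first principal component, with 31.5% of the variance, placed NA10hd replicate 4 at -110.6 and replicate 1 at -35.4, with the other 6 libraries between 19.9 and 28.5. NA10hd replicate 4 had 216 counts of Xist, the transcript of the inactive X chromosome, and 0 of Y-linked genes, while NA10hd replicates 1 to 3 and control replicates 1 and 4 had Y-linked and no Xist counts. Control replicates 2 and 3 had both, with 141 and 45 Xist counts beside 1190 and 1458 counts of Y-linked genes, and the source of this mix was not tested. The study calls the libraries biological replicates without saying that each came from separate animals, and p-values here measure the spread between these libraries. In bulk libraries, fewer cells of a type and less RNA per cell cannot be told apart.

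**Figure D1:**
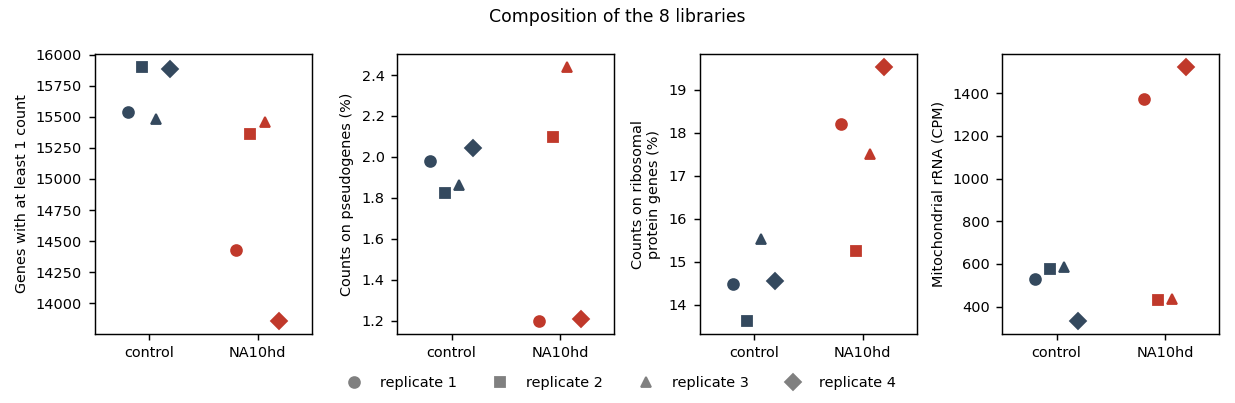
Make-up of the 8 libraries by group, with 1 point per library and the replicate shown by the shape. The panels give genes with at least 1 count, the percentage of counts on pseudogenes, the percentage of counts on ribosomal protein genes and the CPM of mitochondrial ribosomal RNA, and NA10hd replicates 1 and 4 lie away from the other 6 libraries in all panels but that of ribosomal proteins.

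The HSC identity of the sort was visible in both groups. The stem cell factor receptor Kit stood at 239 to 466 CPM in NA10hd and 241 to 351 CPM in control libraries, and Ly6a, which encodes Sca1, at 286 to 381 and 252 to 324 CPM. Of genes that should be low under the gate, Cd48 was at most 0.40 CPM in NA10hd and 3.27 CPM in control, and Flt3 at most 18.6 and 17.1 CPM. The T cell genes Cd3e and Cd3d had 0 counts in all 8 libraries. Among 5 neutrophil and macrophage genes, Ltf had 0 counts and S100a8 and S100a9 at most 2.47 and 1.99 CPM, while the lysozyme gene Lyz2 stood at 368 to 515 CPM in NA10hd and 429.8 to 545 CPM in control libraries and Cd68 at 5.04 to 10.01 and 3.31 to 5.83 CPM. The hemoglobin genes Hba-a1, Hbb-b1 and Hbb-b2 reached 0.55, 1.27 and 16.3 CPM in the highest library. The 5 megakaryocyte and platelet genes Ppbp, Pf4, Gp9, Itga2b and Gp1bb summed to 59.8 to 116 CPM in NA10hd and 88.1 to 109.9 CPM in control libraries, with Itga2b, which HSC also express, at 33.9 to 69.6 CPM and Ppbp at most 4.65 CPM in any library.

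The genes whose parts make the fusion were read first. Hoxa10 had 55.9, 60.4, 80.6 and 29.8 CPM in NA10hd replicates 1 to 4 and 38.5, 35.2, 42.9 and 40.5 CPM in control replicates 1 to 4. Replicates 1 to 3 of NA10hd exceeded all control libraries and replicate 4 was below them, and the log2 fold change of 0.53 (standard error, SE, 0.27) had an adjusted p of 0.459 from edgeR. Nup98 had 5.19, 15.1, 13.8 and 35.7 CPM in NA10hd and 18.2, 19.1, 16.1 and 11.7 CPM in control HSC, in the same order of replicates as used from here on. Its groups overlapped fully, and its log2 fold change of 0.10 (SE 0.47) turned negative under other settings, at -0.51 without NA10hd replicate 4, -0.03 without control replicate 4 and -0.18 with NA10hd replicates 2 and 3 only. The fusion has no entry of its own in the table, and whether its reads were counted on either gene was not tested. At the ROSA26 locus on chromosome 6, where the cassette sits, all 3 genes were lower in NA10hd on average. Thumpd3, beside the ROSA26 gene, had 51.4, 36.7, 21.6 and 56.1 CPM in NA10hd and 58.3, 70.5, 71.1 and 65.2 CPM in control HSC. Its groups did not overlap, and the log2 fold change of -0.68 (SE 0.27) had an adjusted p of 0.354 from edgeR. Gt(ROSA)26Sor and Setd5 had log2 fold changes of -0.49 and -0.32, with overlapping groups and adjusted p of 0.698 and 0.65 from edgeR.

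Across the genome the difference between the groups was broad in number and small in what passed the test. Of 13060 genes, 1 (0.00766%) was a differentially expressed gene (DEG) by edgeR's quasi-likelihood test with a fold change over 1.5 and an adjusted p below 0.05. At an unadjusted p under 0.05 stood 865 genes higher (6.62%) and 687 lower (5.26%) in NA10hd, and without control replicate 2 the sum of both was 932 in place of 1552. DESeq2, the tool of the study's methods, called 130 of the tested genes higher (0.995%) and 109 lower (0.835%). On its own filter it called 131 higher and 109 lower of 12013 genes, and without NA10hd replicate 4, the library that stood furthest apart, 113 higher and 153 lower of 14820 genes. The libraries of the 2 groups did not overlap for 520 higher (3.98%) and 500 lower genes (3.83%), 7.81% of genes in all, and 219 of the 239 genes called by DESeq2 were among these. At an adjusted p under 0.1, edgeR listed 11 higher and 2 lower genes. The median log2 fold change over all tested genes was 0.02, and 51.5% of genes were higher in NA10hd.

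The DEG of edgeR was Rrm1 (ENSMUSG00000030978, chromosome 7, 109590209 to 109618285 of NCBIM37), the large subunit of ribonucleotide reductase, which makes deoxynucleotides. Rrm1 is a member of the cell cycle list and so not a result outside that group. It had 67.3, 71.2, 64.9 and 62.7 CPM in NA10hd and 138, 171, 189 and 138 CPM in control HSC. The NA10hd libraries lay close together and far under the lowest control library. Rrm1 fell by 1.26 on the log2 scale (SE 0.17, adjusted p = 0.0434 from edgeR). With 1 library left out, the call remained only where that library was NA10hd replicate 4 (adjusted p = 0.0418 from edgeR). Without NA10hd replicate 1, 2 or 3 the adjusted p was 0.0581, 0.0974 and 0.129, and without control replicate 1, 2, 3 or 4 it was 0.139, 0.222, 0.184 and 0.143, at log2 fold changes of -1.32 to -1.17.

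Among genes outside the cell cycle, Hox and sex-linked lists whose groups did not overlap, the 14 higher genes with the smallest p were led by Arrdc3, Sva, Neo1, Meg3 and Plac8. The alpha-arrestin Arrdc3 (ENSMUSG00000074794, chromosome 13, 81022645 to 81035296), an adaptor that directs membrane receptors to breakdown, had 143, 152, 130.1 and 166 CPM in NA10hd and 67.96, 66.1, 45.4 and 70.6 CPM in control HSC. The lowest NA10hd library was above the highest control library by a wide margin. It had a log2 fold change of 1.24 (SE 0.18, adjusted p = 0.0563 from edgeR and 3.71e-07 from DESeq2). Neo1 (ENSMUSG00000032340, chromosome 9, 58722486 to 58884248), the netrin and repulsive guidance molecule receptor neogenin, had 81.8, 54.9, 71.8 and 69.4 CPM in NA10hd and 15.4, 27.5, 26.7 and 25.5 CPM in control HSC. All NA10hd libraries were again above all control libraries, with a log2 fold change of 1.54 (SE 0.24, adjusted p = 0.0563 from edgeR and 6.53e-07 from DESeq2). Sva, a secreted prostate and seminal fluid gene, had 0 counts in every control library and 8.08, 5.699, 4.75 and 6.58 CPM in NA10hd. It was at least 76.5-fold higher in NA10hd, against a limit of 0.0820 CPM for a count of 0 over the 4 control libraries (3 counts, counting error only).

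Other leading higher genes were Cd82, Tenc1, Pip5k1a, Tecpr1 and Cyp4b1. Cd82 (ENSMUSG00000027215, chromosome 2, 93259268 to 93303297), a tetraspanin of the cell membrane, had 105, 84.5, 122 and 109.97 CPM in NA10hd and 55.6, 46.9, 43.5 and 58.004 CPM in control HSC. Its groups were separate, and it had a log2 fold change of 1.05 (SE 0.19, adjusted p = 0.0847 from edgeR and 4.22e-05 from DESeq2). Tenc1 (tensin 2, at focal adhesions) had 172 ± 30.3 CPM in NA10hd against 81.3 ± 20.6 CPM in control HSC (SD, n = 4 each), and Pip5k1a, a kinase that makes the membrane lipid PIP2, had 56.6 ± 8.88 CPM in NA10hd against 25.4 ± 4.497 CPM in control HSC. Both had separate groups, with log2 fold changes of 1.08 and 1.15. Tecpr1, which helps autophagosomes fuse with lysosomes, stood at 106 ± 25.2 CPM in NA10hd against 49.3 ± 8.97 CPM in control HSC. Cyp4b1, a cytochrome P450 enzyme, stood at 22.96 ± 5.59 CPM in NA10hd against 6.41 ± 0.447 CPM in control HSC with a log2 fold change of 1.84. The set also held A930038C07Rik (28.03 ± 13.2 CPM in NA10hd against 2.93 ± 2.28 CPM in control HSC) and C630004H02Rik (91.2 ± 5.41 CPM in NA10hd against 45.9 ± 4.64 CPM in control HSC). Adjusted p for the 14 genes was 0.0563 to 0.104 from edgeR, and DESeq2 called all 14 higher.

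The 14 leading lower genes included enzymes of nucleotide and amino acid supply, RNA processing factors and the apoptosis inhibitor Bcl2. Bcl2 (ENSMUSG00000057329, chromosome 1, 108434755 to 108610851), which holds mitochondria intact against death signals, had 50.9, 56.8, 44.3 and 45.6 CPM in NA10hd and 100.1, 89.4, 87.4 and 88.8 CPM in control HSC. The highest NA10hd library was well under the lowest control library. It had a log2 fold change of -0.89 (SE 0.17, adjusted p = 0.104 from edgeR and 6.04e-05 from DESeq2). Tfdp1, the partner through which E2F factors bind DNA, had 61.3, 73.2, 63.3 and 56.2 CPM in NA10hd and 102, 136, 118 and 114 CPM in control HSC. No NA10hd library reached the control range, and the log2 fold change was -0.89 (SE 0.17), with an adjusted p of 0.104 from edgeR and 9.22e-05 from DESeq2. Klf10, a transcription factor induced by TGF-beta, had 53.04 ± 13.1 CPM in NA10hd against 108 ± 6.13 CPM in control HSC (SD, n = 4 each). Cndp2, a cytosolic dipeptidase, had 15.8, 15.1, 22.96 and 24.9 CPM in NA10hd and 45.9, 48.7, 44.5 and 44.996 CPM in control HSC. The control libraries lay close together and far above NA10hd, with a log2 fold change of -1.23 (SE 0.24, adjusted p = 0.104 from edgeR and 0.000185 from DESeq2).

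RNA processing was represented by Cstf2, a cleavage factor of mRNA 3' end formation (27.3 ± 7.61 CPM in NA10hd against 60.3 ± 10.3 CPM in control HSC; SD, n = 4 each), and by Dkc1, the pseudouridine synthase dyskerin (103 ± 18.1 CPM in NA10hd against 187 ± 23.5 CPM in control HSC). Ireb2, which controls mRNAs of iron handling, had 50.1 ± 10.2 CPM in NA10hd against 89.2 ± 8.66 CPM in control HSC, and Phgdh, the first enzyme of serine synthesis, had 153 ± 24.6 CPM in NA10hd against 244 ± 21.7 CPM in control HSC. Pdia3, a disulfide isomerase of the endoplasmic reticulum that also helps load class I molecules, had 44.9 ± 8.604 CPM in NA10hd against 90.7 ± 26.9 CPM in control HSC. The zinc finger gene Zfp458 and the predicted gene Gm11992 had 0 counts in every NA10hd library, with 3.001, 4.12, 4.02 and 5.44 CPM and 1.06, 1.87, 1.34 and 1.86 CPM in control libraries. They were at least 54.8-fold and 20.3-fold lower in NA10hd, against a limit of 0.0756 CPM (3 counts over the 4 libraries). DESeq2 gave no adjusted p for these last 2 genes and called the other 12 lower, while the adjusted p of the 14 was 0.0748 to 0.201 from edgeR.

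**Figure D2:**
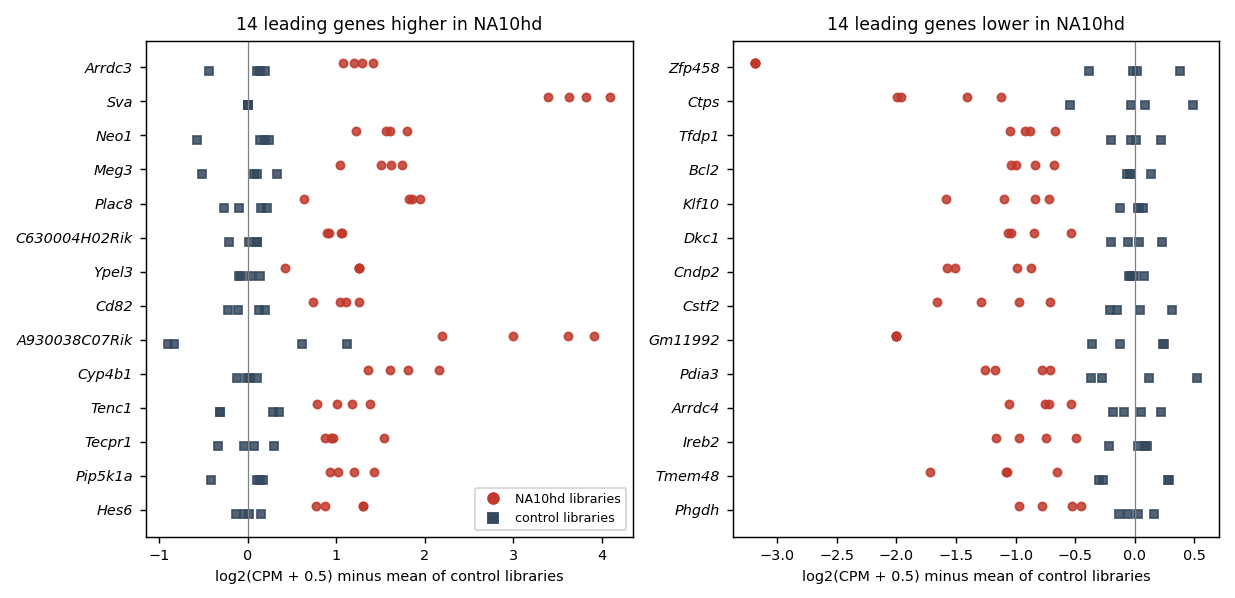
The 14 leading higher (left) and 14 leading lower genes (right) by library, as log2(CPM + 0.5) minus the mean of the control libraries. Circles are NA10hd and squares control libraries, which do not overlap for any of these genes because the choice of genes required it, and Sva (left) and Zfp458 and Gm11992 (right) are at 0 counts in 1 group.

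The list of FoxO factors and genes of resting cells leaned upward. Of its 26 tested members, 19 were higher and 7 lower in NA10hd, and their median log2 fold change was 0.34 against 0.02 over all genes. At an unadjusted p under 0.05 there were 9 higher members (34.6% of the list, background 6.62%) and 2 lower ones (7.69%, background 5.26%), and DESeq2 called 3 higher and 1 lower (background 0.995% and 0.835%). The list shares 2 members with the cell cycle list, Cdkn1b and Cdkn1c, and its median without them was 0.30. The list's median over members in each library was 0.44, 0.14, 0.35 and 0.34 in NA10hd and 0.04, -0.01, -0.0031 and 0.10 in control libraries on the log2 scale, with no overlap. With NA10hd replicates 2 and 3 alone, the median log2 fold change of the list was 0.22, and with only the libraries that had Y-linked and no Xist counts it was 0.17. Each of these fits had 5 higher members at an unadjusted p under 0.05, where the share over all genes was 7.73% and 2.70%. The called members were Arrdc3 (above), Cdkn1b, Ypel3 and Arrdc4.

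Cdkn1b, the inhibitor p27 of cyclin-dependent kinases, had 33.5, 32.4, 17.1 and 31.3 CPM in NA10hd and 7.94, 5.71, 9.93 and 10.4 CPM in control HSC. Even the lowest NA10hd library was above all control libraries. It had a log2 fold change of 1.75 (SE 0.34, adjusted p = 0.104 from edgeR and 0.000137 from DESeq2). Ypel3 (ENSMUSG00000042675, chromosome 7, 133920469 to 133924028), a small protein tied to growth arrest, had 192, 343, 343 and 343 CPM in NA10hd and 136, 133, 147 and 158 CPM in control HSC. In NA10hd, replicates 2 to 4 were nearly equal and replicate 1 was lower, though still above control, and the gene had a log2 fold change of 1.09 (SE 0.19, adjusted p = 0.0847 from edgeR and 9.22e-05 from DESeq2). Arrdc4 (ENSMUSG00000042659, chromosome 7, 75881931 to 75894127), an alpha-arrestin of the same family as Arrdc3 and Txnip and a target of glucose-sensing Mlx factors, went the other way. It had 74.6, 51.8, 64.04 and 65.6 CPM in NA10hd and 102, 126, 112 and 95.6 CPM in control HSC. No NA10hd library reached the lowest control library, with a log2 fold change of -0.77 (SE 0.18, adjusted p = 0.192 from edgeR and 0.00475 from DESeq2). Txnip, which restrains glucose uptake, had 943 ± 103 CPM in NA10hd against 1088 ± 136 CPM in control HSC (SD, n = 4 each), and its groups overlapped. Thus the 3 members of the arrestin family in the list had log2 fold changes of 1.24, -0.77 and -0.21.

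Other members of the list, except Btg2, were picked after their values were seen, as was Txnip. Foxo1 itself had 121, 91.3, 98.4 and 104 CPM in NA10hd and 75.9, 73.4, 64.7 and 76.1 CPM in control HSC. The groups did not overlap, at a log2 fold change of 0.52 (SE 0.17), and neither tool called it (adjusted p = 0.287 from edgeR, 0.0623 from DESeq2). Cited2, a co-activator inhibitor needed by HSC, had 146 ± 9.55 CPM in NA10hd against 102 ± 14.8 CPM in control HSC (SD, n = 4 each) with separate groups. Btg2, which slows proliferation, had 327 ± 85.8 CPM in NA10hd against 223 ± 24.6 CPM in control HSC with overlapping groups. Tsc22d3, the glucocorticoid-induced leucine zipper and a FoxO target, was lower in NA10hd, at 668 ± 130.2 CPM in NA10hd against 1005 ± 172 CPM in control HSC, with overlap.

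The promoters of Ypel3 and Arrdc4 are shown because the genes are listed together and differed in opposite directions. The windows run from 250 bases before to 50 after the RefSeq start in GRCm38.p6, 5' to 3' on the gene's strand, and are lower case except for the motif. Ypel3 (chr7:126776713-126777012, plus strand) holds the FoxO core GTAAACA 25 bases after the start, and Arrdc4 (chr7:68749189-68749488, minus strand) holds the E-box CACGTG, which Mlx factors can bind, 193 bases before the start.
Ypel3: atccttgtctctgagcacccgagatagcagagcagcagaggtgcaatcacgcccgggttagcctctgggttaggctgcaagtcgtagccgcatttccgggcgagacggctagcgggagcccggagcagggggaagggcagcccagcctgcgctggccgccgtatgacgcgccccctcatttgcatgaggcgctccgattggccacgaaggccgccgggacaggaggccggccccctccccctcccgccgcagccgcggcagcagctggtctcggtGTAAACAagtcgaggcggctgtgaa
Arrdc4: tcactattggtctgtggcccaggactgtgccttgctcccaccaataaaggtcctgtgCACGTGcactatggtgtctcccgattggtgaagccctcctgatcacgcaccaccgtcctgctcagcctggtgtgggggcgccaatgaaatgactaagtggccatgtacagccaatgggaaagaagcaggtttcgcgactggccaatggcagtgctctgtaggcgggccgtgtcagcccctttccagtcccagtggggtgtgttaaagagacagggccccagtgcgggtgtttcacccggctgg
Both motifs were searched on both strands (the FoxO core also as TGTTTAC). Of 32851 RefSeq promoters, 3.65% held the FoxO core and 7.15% the E-box, and by gene these were 4.05% and 8.09% of 27025 genes. Of the list's 26 genes, 23 matched a promoter, 4 of these with the FoxO core (Btg1, Sesn1, Txnip and Ypel3) and 4 with the E-box (Arrdc4, Bnip3, Cited2 and Ypel5). Such a match describes the letters only.

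The family of apoptosis regulators to which Bcl2 belongs was evenly split. Of 17 tested members, 8 were higher and 9 lower, at a median log2 fold change of -0.03, and Bcl2 was the one member at an unadjusted p under 0.05 (5.88%, background 5.26%). Bmf, which activates apoptosis when cells detach, had 9.77, 17.5, 22.4 and 10.2 CPM in NA10hd and 9.53, 6.36, 8.43 and 9.42 CPM in control HSC. Its lowest NA10hd library was just above the highest control library, at a log2 fold change of 0.83 (SE 0.40, adjusted p = 0.438 from edgeR). Bad, another activator, had 32.5 ± 9.35 CPM in NA10hd against 22.4 ± 2.73 CPM in control HSC (SD, n = 4 each), with overlap. Among p53 target genes, 14 of 24 were higher, with a median of 0.13 that was 0.023 without NA10hd replicate 4. The p53 target and cell cycle inhibitor Cdkn1a had 35.2, 11.8, 5.696 and 67.99 CPM in NA10hd and 7.24, 16.7, 15.8 and 6.77 CPM in control HSC. Its mean rested on NA10hd replicates 1 and 4, the libraries that stood apart, and with replicates 2 and 3 only its log2 fold change turned from 1.36 to -0.43. Sesn1, a p53 and FoxO target, had a log2 fold change of 0.34.

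**Figure D3:**
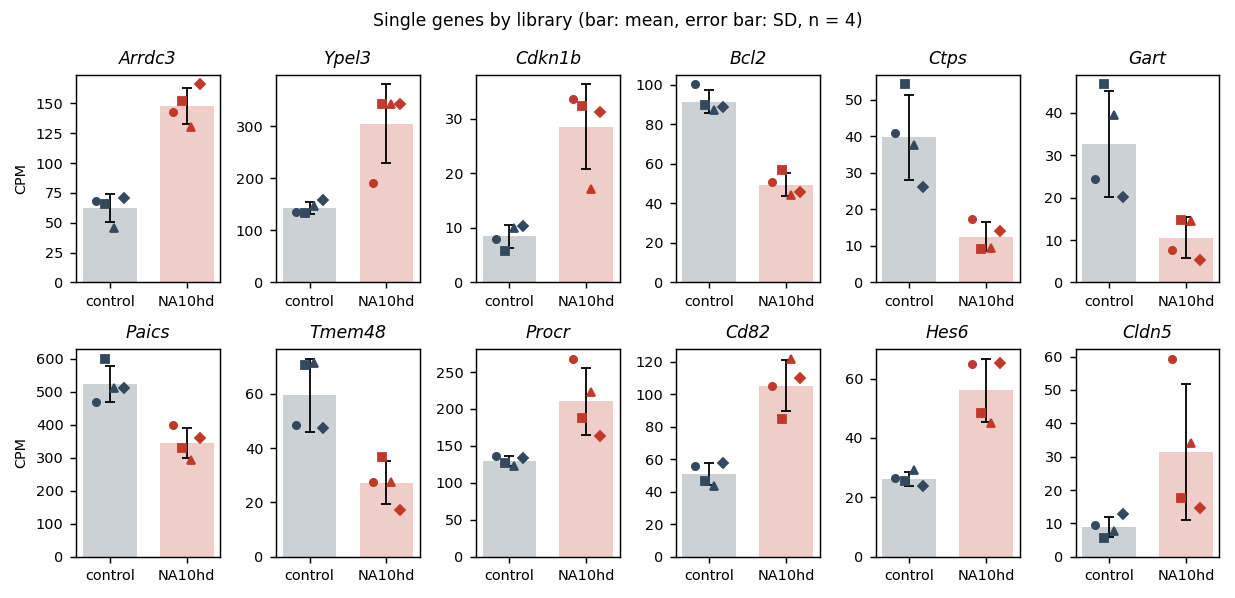
CPM of 12 genes by library, with bars at the mean and error bars of 1 SD (n = 4 in each group) and the replicate shown by the shape. Arrdc3, Ypel3, Cdkn1b, Procr, Cd82, Hes6 and Cldn5 are higher and Bcl2, Ctps, Gart, Paics and Tmem48 lower in NA10hd, and the libraries of the groups overlap for none of the 12.

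Enzymes that build nucleotides stood lower in NA10hd. In the list of purine, pyrimidine and one-carbon enzymes, 17 of 26 tested members were lower and 9 higher, with a median log2 fold change of -0.28 (-0.39 to -0.14 with 1 library left out in turn). There were 9 lower members (34.6%, background 5.26%) and 1 higher member at an unadjusted p under 0.05, and DESeq2 called 4 lower and 0 higher (background 0.835% and 0.995%). The list's value was -0.17, -0.58, -0.46 and -0.30 in NA10hd libraries and -0.07, 0.12, 0.15 and -0.15 in control libraries, with no overlap. NA10hd replicate 1 and control replicate 4 nearly met, and with only the libraries that had Y-linked and no Xist counts the median was -0.078, with 4 members at an unadjusted p under 0.05 (background 1.94%). No member of this list is in the cell cycle list, where the deoxynucleotide enzyme Rrm1 was placed.

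Ctps (ENSMUSG00000028633, chromosome 4, 120212473 to 120242881), CTP synthase, had 17.4, 9.26, 9.49 and 14.1 CPM in NA10hd and 40.8, 54.2, 37.7 and 26.1 CPM in control HSC. Its groups were separate, with a log2 fold change of -1.66 (SE 0.31, adjusted p = 0.104 from edgeR and 0.000139 from DESeq2). The purine enzymes Gart and Paics act in neighbouring steps of the same pathway. Gart had 7.72, 14.8, 14.4 and 5.32 CPM in NA10hd and 24.4, 46.7, 39.5 and 20.04 CPM in control HSC. All NA10hd libraries were below all control libraries, of which replicates 2 and 3 were the highest, with a log2 fold change of -1.62 (SE 0.40, adjusted p = 0.201 from edgeR and 0.00961 from DESeq2). Paics had 401, 329.8, 294 and 361 CPM in NA10hd and 471, 600.4, 513 and 512 CPM in control HSC. Its groups were apart too, and the gene had a log2 fold change of -0.60 (SE 0.15, adjusted p = 0.201 from edgeR and 0.00962 from DESeq2). Further genes of the pathway were picked after their values were seen. The purine enzyme Pfas, the highest member of the list, had a log2 fold change of 0.71 with overlap and no call. Gmps, which makes GMP, was called lower by DESeq2 (log2 fold change -0.73, adjusted p = 0.0446; 0.249 from edgeR). Ppat, the first enzyme of purine synthesis, had 28.4 ± 11.3 CPM in NA10hd against 52.2 ± 10.9 CPM in control HSC (SD, n = 4 each) with separate groups, and Prps1, which makes its substrate, had a log2 fold change of -0.71 with overlap. The serine and glycine converting enzymes Shmt1 and Shmt2 had log2 fold changes of -0.88 and -0.52, each with separate groups and no call. The purine salvage enzyme Hprt, outside the list, was called lower by DESeq2 too (log2 fold change -0.62, adjusted p = 0.0157; 0.207 from edgeR).

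Paics and Ppat lie head to head on chromosome 5, with 177 bases between their RefSeq promoter windows. The Paics window (chr5:76951052-76951351, plus strand of GRCm38.p6) is shown since both genes were lower, with the E-box CACGTG in capitals 203 bases before the start.
Paics: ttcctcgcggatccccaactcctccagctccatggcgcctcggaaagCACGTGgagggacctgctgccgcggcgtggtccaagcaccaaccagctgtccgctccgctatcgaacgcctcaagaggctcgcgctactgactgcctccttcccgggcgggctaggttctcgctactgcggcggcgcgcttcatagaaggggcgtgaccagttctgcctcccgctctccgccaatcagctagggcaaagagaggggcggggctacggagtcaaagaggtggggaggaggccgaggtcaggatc
In the nucleotide list, 23 of 26 genes matched a promoter, of which 4 held the E-box (Atic, Impdh2, Nme1 and Paics) and 1 the FoxO core (Prps1).

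Nuclear pore proteins, the family from which the fusion takes its Nup98 part, were lower almost throughout. Of 32 tested members, 28 were lower (87.5%, background 48.5%) and 4 higher in NA10hd, and the median log2 fold change was -0.37. At an unadjusted p under 0.05 stood 10 lower (31.2%, background 5.26%) and 0 higher members, and 8 had separate groups (25%, background 3.83%). The list's value was -0.29, -0.19, -0.50 and -0.47 in NA10hd and -0.06, 0.11, 0.07 and -0.07 in control libraries, without overlap. With 1 library left out in turn, the median was -0.47 to -0.27, and without control replicate 2 there were 6 members at an unadjusted p under 0.05 (background 2.91%). The libraries with Y-linked and no Xist counts alone gave a median of -0.24 and 3 such members (background 1.94%).

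Tmem48 (ENSMUSG00000028614, chromosome 4, 107040389 to 107088951), the membrane nucleoporin Ndc1 that anchors the pore, had 27.4, 36.9, 27.4 and 17.3 CPM in NA10hd and 48.4, 70.7, 71.4 and 47.3 CPM in control HSC. The groups were separate, and it had a log2 fold change of -1.12 (SE 0.26, adjusted p = 0.192 from edgeR and 0.00774 from DESeq2). Seh1l, of the scaffold of the pore's outer ring, had 76.1, 68.5, 75.3 and 58.8 CPM in NA10hd and 107, 111, 126 and 98.8 CPM in control HSC. It was separate as well, with a log2 fold change of -0.67 (SE 0.17, adjusted p = 0.207 from edgeR and 0.00813 from DESeq2), and these were the list's calls by DESeq2. Ahctf1, which seeds pores on chromatin, had 51.4 ± 20.1 CPM in NA10hd against 92.9 ± 10.3 CPM in control HSC (SD, n = 4 each). Of the nucleoporins picked after their values were seen, Nup35, an inner ring protein, had 31.9, 30.9, 29.1 and 27.98 CPM in NA10hd and 44.7, 46.97, 44.3 and 41.7 CPM in control HSC. Both groups were tight and apart, yet with a log2 fold change of -0.57 (SE 0.20) the adjusted p was 0.313 from edgeR. Nup153, Nup205, Nup85 and Nup93 had log2 fold changes of -0.49, -0.80, -0.44 and -1.12.

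Of the carriers that pass through these pores, 4 that were lower were picked after their values were seen. Kpna2, an importin alpha, had 10.1, 12.03, 6.04 and 6.02 CPM in NA10hd and 18.4, 35.8, 25.8 and 17.8 CPM in control HSC. The 2 groups were apart, with a log2 fold change of -1.51 (SE 0.37, adjusted p = 0.201 from edgeR and 0.00798 from DESeq2). Ipo5, an importin beta, had 127 ± 14.996 CPM in NA10hd against 201 ± 31.3 CPM in control HSC (SD, n = 4 each), Cse1l, which returns importin alpha to the cytoplasm, had 95.7 ± 4.35 CPM in NA10hd against 145 ± 32.3 CPM in control HSC, and Ranbp1, which aids release of cargo, had 61.8 ± 5.24 CPM in NA10hd against 103 ± 23.2 CPM in control HSC. Each of the 3 had separate groups and a call by DESeq2 (adjusted p = 0.0111, 0.0479 and 0.0246), with 0.201, 0.26 and 0.215 from edgeR.

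Genes that make ribosomes and genes that encode their proteins stood on opposite sides. In the list of Myc and ribosome biogenesis factors, 26 of 31 tested members were lower, at a median log2 fold change of -0.35 (-0.44 to -0.21 with 1 library left out). At an unadjusted p under 0.05 stood 6 lower members (19.4%, background 5.26%). Dkc1, described above, was the member called by DESeq2. Pes1, needed for the large subunit, had 47.8 ± 5.25 CPM in NA10hd against 68.95 ± 7.53 CPM in control HSC (SD, n = 4 each), and the nucleolar protein Gnl3 had 130.2 ± 35.4 CPM in NA10hd against 199 ± 46.9 CPM in control HSC. The nucleolar helicase Ddx21, outside the list and picked after its values were seen, had 87.1 ± 17.6 CPM in NA10hd against 155 ± 39.3 CPM in control HSC and was called lower by DESeq2 (adjusted p = 0.0216, 0.207 from edgeR). The list split the libraries of each group. Its value was -0.14, -0.49, -0.54 and -0.05 in NA10hd and -0.22, 0.22, 0.28 and -0.24 in control libraries, so that NA10hd replicates 1 and 4 overlapped control replicates 1 and 4.

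Of 79 tested genes of cytosolic ribosomal proteins, 77 were higher in NA10hd and 2 lower, at a median log2 fold change of 0.39. At an unadjusted p under 0.05 stood 44 of them, all higher (55.7%, background 6.62%). Rpl13a had 2579, 2156, 2753 and 2897 CPM in NA10hd and 1624, 1707, 1857 and 1613 CPM in control HSC. It was separate between the groups, with a log2 fold change of 0.61 (SE 0.13, adjusted p = 0.145 from edgeR and 0.00181 from DESeq2). Rpl13 and Rpl12 had log2 fold changes of 0.68 and 0.63 and were called by DESeq2, as was Rpl36, picked after its values were seen (0.86). The list's value was 0.52, 0.01, 0.34 and 0.69 in NA10hd against -0.02, -0.11, 0.16 and -0.04 in control libraries. NA10hd replicate 2 lay within the control range and replicate 4 was highest, and with replicates 2 and 3 only the median log2 fold change was 0.11, with 15 members at an unadjusted p under 0.05 (background 7.73%). Leaving out NA10hd replicate 4 or control replicate 1, 2 or 4 lowered the number of such members to 22, 29, 25 and 29, where the background was 6.07%, 4.99%, 4.15% and 4.98%. Ribosomal protein pseudogenes, near copies whose reads the counting could share, went the other way, with 30 of 110 higher and a median of -0.23. Other protein-coding genes at 758 CPM or more and with at most 4120 exon bases had a median of 0.10 (50 genes). These limits are the lower quartile of level and the 95th percentile of length of the ribosomal protein genes. The set had no upper limit on level and no lower limit on length, so it was not matched. The parts of library make-up and of shared reads in this result were not tested.

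**Figure D4:**
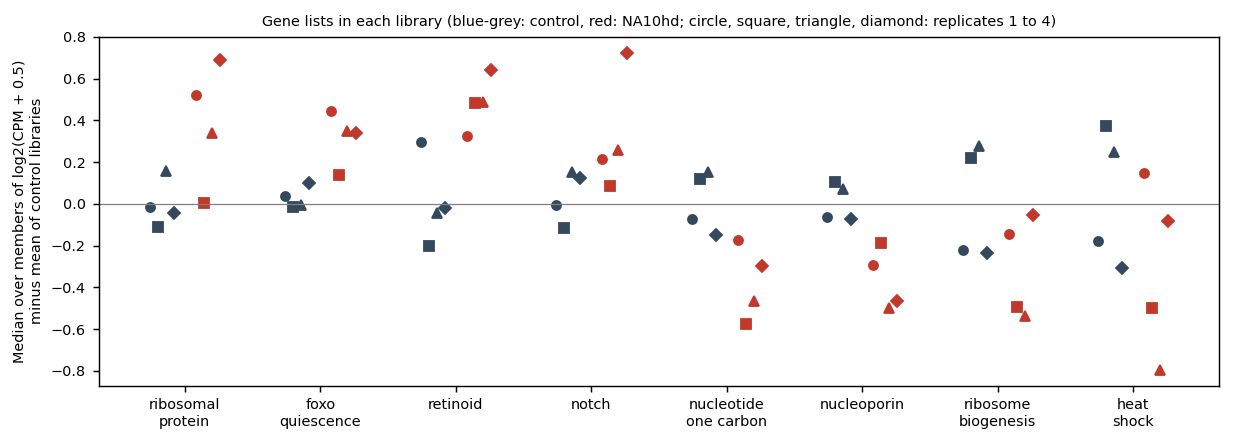
Value of 8 gene lists in each library, as the median over members of log2(CPM + 0.5) minus the mean of the control libraries, with control in blue-grey, NA10hd in red and the replicate shown by the shape. The FoxO, retinoid, nucleotide and nucleoporin lists separate the groups, while the lists of ribosomal proteins, Notch, ribosome biogenesis and heat shock overlap, with NA10hd replicate 4 highest for ribosomal proteins and Notch.

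Genes that mark long-term HSC were mostly higher. Of 29 tested members, 23 were higher (79.3%, background 51.5%) and 6 lower, at a median log2 fold change of 0.20. DESeq2 called 3 higher (background 0.995%), among them Procr and Pdzk1ip1. By library the list stood at 0.23, 0.29, 0.22 and 0.11 in NA10hd and 0.14, -0.08, -0.02 and 0.02 in control libraries, so that NA10hd replicate 4 overlapped control replicate 1. Procr, the endothelial protein C receptor used to sort HSC, had 268, 188, 223 and 163 CPM in NA10hd and 137, 126, 122 and 134 CPM in control HSC. All NA10hd libraries exceeded all control libraries, with a log2 fold change of 0.70 (SE 0.17, adjusted p = 0.201 from edgeR and 0.0145 from DESeq2). Pdzk1ip1, a membrane-associated protein of HSC, had 476, 425, 654 and 674 CPM in NA10hd and 349.7, 299.6, 433 and 318 CPM in control HSC. Here NA10hd replicate 2 was within the control range, and the gene had a log2 fold change of 0.67 (SE 0.18, adjusted p = 0.233 from edgeR and 0.0395 from DESeq2).

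Gata2 and Mllt3, regulators of HSC maintenance picked after their values were seen, had 519.9 ± 73.4 CPM in NA10hd against 376 ± 24.5 CPM in control HSC (SD, n = 4 each) and 473 ± 50.5 CPM in NA10hd against 345 ± 62.1 CPM in control HSC, with separate groups and no call. Robo4, an adhesion receptor of HSC picked in the same way, had 94.6 ± 28.8 CPM in NA10hd against 57.4 ± 21.9 CPM in control HSC with overlap. Abcg2, the transporter behind the side population of HSC, was lower, with 143, 147, 169.5 and 141 CPM in NA10hd and 219, 188, 172 and 194 CPM in control HSC, and its groups were separate at a log2 fold change of -0.36 (SE 0.15, adjusted p = 0.362 from edgeR). Levels of Kit and Slamf1 overlapped between the groups.

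The retinoid list was higher in 11 of 12 tested members, with a median log2 fold change of 0.59 and 5 members at an unadjusted p under 0.05 (41.7%, background 6.62%). DESeq2 called 1 member higher (background 0.995%), and 1 had separate groups (8.33%, background 3.98%). The members described here overlapped between the groups. Retinoic acid signalling is known to help keep HSC dormant. Rdh10, which makes retinal from retinol, had 131, 109.9, 68.2 and 135 CPM in NA10hd and 71.8, 72.5, 62.95 and 69.4 CPM in control HSC. Replicate 3 of NA10hd lay within the control range and the others above it. Dhrs3, which turns retinal back to retinol, had 10.5, 33.2, 30.98 and 41.6 CPM in NA10hd and 16.8, 10.9, 9.45 and 11.7 CPM in control HSC, with replicate 1 of NA10hd in the control range. Adjusted p from edgeR was 0.282 for Rdh10 and 0.282 for Dhrs3. Cyp26b1, which breaks down retinoic acid, and the receptor Rarb had log2 fold changes of 1.32 and 0.73, both picked after their values were seen and with overlap. The member that was lower, the retinal dehydrogenase Aldh1a1, had a log2 fold change of -0.57. With the libraries that had Y-linked and no Xist counts only, the list's median was 0.23.

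Notch pathway genes had 17 of 25 tested members higher, with a median log2 fold change of 0.45, and 7 members had separate groups (28%, background 3.98%). The pathway links receptors on one cell to ligands on its neighbour. Among ligands and receptors, Jag1 had 7.92 ± 4.12 CPM in NA10hd against 3.02 ± 1.18 CPM in control HSC (SD, n = 4 each) and Notch2 42.5 ± 11.1 CPM in NA10hd against 24.6 ± 5.74 CPM in control HSC, both with separate groups and no call, while the receptor Notch4, the lowest member of the list, had a log2 fold change of -1.03 with overlap. In the signalling step, Psen2, part of gamma-secretase, had a log2 fold change of 0.58, and Maml2, a co-activator of the cleaved receptor, had 56.2, 39.4, 47.3 and 48.8 CPM in NA10hd and 34.95, 25.5, 17.96 and 28.7 CPM in control HSC. Maml2 was separate between groups, with a log2 fold change of 0.84 (SE 0.25, adjusted p = 0.26 from edgeR and 0.0479 from DESeq2). Of the effectors, Hes6 had 65.03, 48.5, 45.1 and 65.3 CPM in NA10hd and 26.5, 25.4, 29.2 and 23.8 CPM in control HSC. It is a relative of the Hes repressors that counters Hes1, and with separate groups it had a log2 fold change of 1.09 (SE 0.22, adjusted p = 0.104 from edgeR and 0.000214 from DESeq2). Dtx3, a Deltex ubiquitin ligase, had a log2 fold change of 0.99. Jag1, Notch2, Notch4 and Psen2 were picked after their values were seen. The list's value was 0.21, 0.09, 0.26 and 0.72 in NA10hd and -0.0046, -0.12, 0.15 and 0.13 in control libraries, with replicate 4 of NA10hd far above the rest and a median log2 fold change of 0.18 without it.

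Endothelial-type genes, many of which HSC also express, were higher in 11 of 13 tested members, with a median log2 fold change of 0.19, and 4 stood at an unadjusted p under 0.05 (30.8%, background 6.62%). The list's value was 0.46, 0.46, 0.33 and 0.39 in NA10hd and 0.09, -0.17, -0.01 and 0.12 in control libraries, without overlap. Cldn5, a tight junction protein, had 59.4, 17.6, 34.1 and 14.7 CPM in NA10hd and 9.53, 5.61, 7.80 and 12.7 CPM in control HSC. NA10hd replicate 1 was highest by far and replicate 4 near the control range, with a log2 fold change of 1.82 (SE 0.45, adjusted p = 0.201 from edgeR and 0.0106 from DESeq2). Egfl7, a secreted vessel factor, had 104, 97.6, 99.3 and 112 CPM in NA10hd and 78.9, 63.2, 73.7 and 69.2 CPM in control HSC. Its groups were tight and separate, at a log2 fold change of 0.53 (SE 0.16, adjusted p = 0.269 from edgeR). Eng, a TGF-beta co-receptor that marks HSC as well, had 266 ± 44.2 CPM in NA10hd against 177 ± 12.6 CPM in control HSC (SD, n = 4 each). Its adjusted p was 0.226 from edgeR and 0.0273 from DESeq2, with a fold change just under that threshold. Ramp2, a partner of the adrenomedullin receptor outside the list and picked after its values were seen, had 74.6, 39.5, 65.9 and 52.05 CPM in NA10hd and 17.3, 11.1, 2.44 and 16.99 CPM in control HSC and was called by DESeq2 (log2 fold change 2.30, adjusted p = 0.000322; 0.104 from edgeR). The 5 endothelial markers Pecam1, Cdh5, Kdr, Emcn and Plvap summed to 110.4 to 209 CPM in NA10hd and 104 to 154 CPM in control libraries. Cdh5 reached 5.79 CPM in 1 NA10hd library and at most 0.87 CPM in control, and Plvap 2.80 and 0.27 CPM. Their part in the result was not tested. With 1 library left out the median of the list was 0.18 to 0.49, 0.33 or more except without NA10hd replicate 1, and with NA10hd replicates 2 and 3 only it was 0.08.

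Lists of maturing cells gave small numbers of tested genes. Of 9 erythroid genes 6 were lower (median -0.21, -0.35 to -0.06 with 1 library left out), and with only the libraries that had Y-linked and no Xist counts the median turned to 0.042. Hbb-b2, with the smallest p of the list, had 2.55 ± 2.25 CPM in NA10hd against 10.8 ± 6.35 CPM in control HSC (SD, n = 4 each). Of 20 megakaryocyte genes 13 were lower (median -0.25, and -0.079 without NA10hd replicate 2). The platelet glycoprotein gene Mmrn1 had 279, 298, 296 and 317 CPM in NA10hd and 412, 431, 341 and 397 CPM in control HSC. It was lower in every NA10hd library, at a log2 fold change of -0.41 (SE 0.14, adjusted p = 0.289 from edgeR). Of 12 progenitor and priming genes 9 were higher (median 0.29, 0.11 to 0.49 with 1 library left out), among them Gfi1, a repressor needed by HSC and granulocyte precursors, with 106, 70.4, 42.4 and 21.3 CPM in NA10hd and 37.6, 14.3, 11.03 and 26.5 CPM in control HSC and overlap. Mature myeloid genes had a median of 0.20 (5 genes), lymphoid genes 0.46 (6 genes, 5 higher, with Klrb1c at a log2 fold change of 0.83) and stromal genes 0.37 (4 genes). With 1 library left out, these medians were -0.077 to 0.51 (myeloid), 0.20 to 0.68 (lymphoid) and -0.61 to 0.82 (stromal), so that the direction turned for the myeloid and stromal genes. None of these lists held a DESeq2 call but that of progenitor genes, with Plac8.

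Class I antigen presentation was higher in most members. Of 23 tested genes, 17 were higher and 6 lower (median 0.33), with 7 higher (30.4%, background 6.62%) and 2 lower at an unadjusted p under 0.05, and without NA10hd replicate 4 the median was 0.15. H2-T23, the nonclassical class I molecule Qa-1, had 231, 196, 232 and 253 CPM in NA10hd and 128, 133, 137 and 151 CPM in control HSC. The groups were separate, with a log2 fold change of 0.73 (SE 0.15, adjusted p = 0.104 from edgeR and 0.000185 from DESeq2). Those 2 lower members were chaperones of the endoplasmic reticulum that serve secreted proteins at large, Pdia3 (above) and calnexin, Canx, with 504 ± 78.5 CPM in NA10hd against 716 ± 62.6 CPM in control HSC (SD, n = 4 each). Of 15 class II genes 10 were higher (median 0.09, and 0.34 without NA10hd replicate 4). H2-DMa, which exchanges peptides on class II molecules, had 225, 278, 248 and 378 CPM in NA10hd and 174, 178, 157 and 186 CPM in control HSC and was called higher by DESeq2 (log2 fold change 0.70, adjusted p = 0.0187; 0.202 from edgeR). Class I genes form families of near-identical copies, so reads could be shared among them. Interferon-stimulated genes had 34 of 48 higher with a median of only 0.13 and overlapping list values. Irf7, the interferon regulatory factor, had 76.1, 74.2, 95.97 and 40.3 CPM in NA10hd and 43.96, 33.1, 22.6 and 30.8 CPM in control HSC. NA10hd replicate 4 lay within the control range, with a log2 fold change of 1.14 (SE 0.28, adjusted p = 0.201 from edgeR and 0.0157 from DESeq2). Samhd1, which breaks down deoxynucleotides, had 222, 173, 235 and 207 CPM in NA10hd and 153, 139.8, 139.9 and 128 CPM in control HSC. It was higher in every NA10hd library, at a log2 fold change of 0.58 (SE 0.15, adjusted p = 0.21 from edgeR), and neither tool called it. Gbp6, a guanylate-binding protein picked after its values were seen, had a log2 fold change of -0.33.

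Cytokine receptor genes had 22 of 34 members higher (median 0.25), and the list's values did not overlap, at 0.20, 0.18, 0.36 and 0.26 in NA10hd and 0.05, -0.05, -0.08 and 0.09 in control libraries. Il11ra1, the receptor for interleukin 11, had 178, 211, 268 and 217 CPM in NA10hd and 149, 129, 104 and 129 CPM in control HSC. All NA10hd libraries were above all control libraries, and the gene had a log2 fold change of 0.78 (SE 0.17, adjusted p = 0.158 from edgeR and 0.00442 from DESeq2). The GM-CSF receptor chains Csf2ra and Csf2rb had log2 fold changes of 0.74 and 0.91, with overlap. Among TGF-beta and BMP genes 18 of 28 were higher (median 0.21, and 0.094 without NA10hd replicate 1), with the activin subunit Inhba called by DESeq2 (log2 fold change 1.81, adjusted p = 0.0255; 0.249 from edgeR). The groups overlapped for Inhba, in NA10hd replicate 4 and control replicate 1. The BMP receptor Bmpr2, the lowest member of that list, stood at -1.77 with overlap and was not called. In the NF-kappaB list 19 of 26 were higher (median 0.29, 0.15 without NA10hd replicate 4 and 0.087 with NA10hd replicates 2 and 3 only). Nfkbia, its inhibitor and target, had 299.7, 178, 289 and 159 CPM in NA10hd and 156, 145, 125 and 151 CPM in control HSC. The groups were separate by a narrow margin, with replicates 1 and 3 of NA10hd far above replicates 2 and 4. Adhesion genes had 18 of 29 higher (median 0.15, and 0.069 without NA10hd replicate 3), and Itgb5, an integrin subunit, was called by DESeq2 (log2 fold change 2.14, adjusted p = 0.0117; 0.209 from edgeR).

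The Wnt, immediate early, ERK and Stat5 lists had medians of -0.09 to 0.15. Wnt genes had 0.06 (17 of 26 higher), with 2 higher (7.69%, background 6.62%) and 1 lower member (3.85%, background 5.26%) at an unadjusted p under 0.05. The lower one was Ctnnb1, beta-catenin, at 335 ± 54.9 CPM in NA10hd against 423 ± 21.4 CPM in control HSC (SD, n = 4 each), with separate groups. Gsk3a, the highest member of the list, had a log2 fold change of 1.40 with overlap. Immediate early genes had 0.15 (14 of 26 higher, median -0.07 to 0.21 with 1 library left out), with 5 higher (19.2%, background 6.62%) and 2 lower members at an unadjusted p under 0.05, and their list value was 0.44 in NA10hd replicate 1 and -0.45 in replicate 2. Gem, a small GTPase of that list, was called higher by DESeq2 (log2 fold change 0.84, adjusted p = 0.0359; 0.232 from edgeR). Genes that restrain ERK had 0.01 (10 of 19 higher), where the kinase Mapk3, ERK1, had 155, 163, 149.7 and 171 CPM in NA10hd and 131, 78.4, 145 and 113 CPM in control HSC. It was separate between groups, at a log2 fold change of 0.45 with an adjusted p of 0.37 from edgeR. Stat5 and Socs-Pim genes had -0.09 (8 of 21 higher) and no member at an unadjusted p under 0.05. The median of the 2 genes that make the fusion was 0.31 (0.12 to 0.47 with 1 library left out). That of the 3 genes at ROSA26 was -0.49 (-0.81 to -0.21 with 1 library left out). Igf1, a growth factor picked after its values were seen, had 105, 87.5, 117 and 44.9 CPM in NA10hd and 46.96, 14.6, 24.98 and 40.9 CPM in control HSC and was called by DESeq2 (log2 fold change 1.49, adjusted p = 0.0107; 0.201 from edgeR). Apoe, a lipid carrier, and Tnfrsf18, the receptor GITR, were picked in the same way and called higher by DESeq2, with 600.2 ± 35.3 CPM in NA10hd against 399 ± 23.98 CPM in control HSC and 59.7 ± 14.8 CPM in NA10hd against 28.1 ± 5.16 CPM in control HSC.

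Genes of energy metabolism gave small medians. Nuclear genes of the respiratory chain were higher in 59 of 77 members (median 0.22), with 14 at an unadjusted p under 0.05 (18.2%, background 6.62%) and no call. Cox4i1, a subunit of cytochrome oxidase, had 535, 578, 772 and 658 CPM in NA10hd and 473, 378, 457 and 461 CPM in control HSC, with separate groups and a log2 fold change of 0.52. The list's value was 0.53 in NA10hd replicate 4 and -0.08 in replicate 2, against -0.11 to 0.18 in control libraries. Of the 13 protein genes of the mitochondrial genome, 6 were higher (median -0.12, and -0.24 to -0.055 with 1 library left out). NA10hd replicates 1 and 4 were the high libraries for mt-Nd1, a subunit of complex I, with 6999, 2784, 2939.6 and 6875 CPM in NA10hd and 3423, 2969.7, 3459 and 2897 CPM in control HSC. With replicates 2 and 3 only, the log2 fold change of mt-Nd1 turned from 0.62 to -0.17 and that of mt-Cytb from 0.54 to -0.10. Mitochondrial ribosomal proteins had a median of 0.05 (39 of 74 higher), with Mrps16 called by DESeq2 (log2 fold change 0.74, adjusted p = 0.0176; 0.207 from edgeR).

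Glycolysis genes were lower in 16 of 27 members (median -0.09). The lactate carrier Slc16a1 had 32.2, 15.9, 21.8 and 12.5 CPM in NA10hd and 39.7, 37.9, 57.1 and 33.1 CPM in control HSC. It was separate, at a log2 fold change of -1.03 (SE 0.31, adjusted p = 0.28 from edgeR), and Pfkfb3, which drives glycolytic flux, had one of -0.96. Pdk2, a kinase that inhibits pyruvate dehydrogenase, stood at 0.75. Sterol synthesis genes were higher in 21 of 25 members (median 0.23), with the feedback protein Insig1 and the regulator Srebf1 at log2 fold changes of 1.15 and 0.75, both with overlap. Fatty acid oxidation had a median of -0.03 (7 of 18 higher), which was -0.14 to 0.031 with 1 library left out. Its carnitine transferase Cpt1a had 157, 131, 154 and 136 CPM in NA10hd and 164, 203, 209.97 and 179 CPM in control HSC, with all NA10hd libraries under the control range. Antioxidant genes had 0.08 (18 of 31 higher), which turned to -0.090 without NA10hd replicate 4 and to -0.15 with NA10hd replicates 2 and 3 only, and Gclm, of glutathione synthesis, was called lower by DESeq2 (log2 fold change -0.88, adjusted p = 0.0446; 0.246 from edgeR).

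Protein folding and proteasome genes had negative medians, and autophagy genes a positive one. Of 28 genes of the unfolded protein and integrated stress response, 18 were lower (median -0.31, and -0.058 with only the libraries that had Y-linked and no Xist counts), among them the chaperone Hsp90b1 (-0.65) and the stress factor Atf3 (-1.11), besides Phgdh. Of 17 chaperones, 14 were lower (median -0.20), and Hspa8, the abundant constitutive Hsp70, had 1780.2, 1352, 1077 and 1739 CPM in NA10hd and 1755, 3011, 2422 and 1681 CPM in control HSC. Control replicates 2 and 3 were the highest for Hspa8 and NA10hd replicates 2 and 3 the lowest, while replicates 1 and 4 of both groups lay together. The heat shock list split in the same way, at 0.15, -0.50, -0.79 and -0.08 in NA10hd and -0.18, 0.37, 0.25 and -0.31 in control libraries. Proteasome subunits had a median of -0.12 (24 of 36 lower), which was -0.0053 at its weakest with 1 library left out, and autophagy and lysosome genes one of 0.11 (21 of 33 higher; 0.025 without NA10hd replicate 3), where Ulk1, the kinase that starts autophagy, had 115, 125, 141 and 120.2 CPM in NA10hd and 92.3, 92.1, 67.3 and 88.1 CPM in control HSC. Its groups were separate, at a log2 fold change of 0.56 (SE 0.17, adjusted p = 0.268 from edgeR and 0.0467 from DESeq2), with a fold change under the threshold of 1.5.

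Chromatin regulators had a median of -0.05 (22 of 50 higher; -0.12 to 0.0076 with 1 library left out), with the paired Polycomb enzymes apart. Ezh1, the form of resting cells, had 227, 179, 183 and 199.9 CPM in NA10hd and 138, 104, 140.4 and 114 CPM in control HSC. It was higher in all NA10hd libraries, with a log2 fold change of 0.67 (SE 0.16, adjusted p = 0.201 from edgeR and 0.00962 from DESeq2). Ezh2, the form of dividing cells, had 55.4, 33.1, 66.5 and 62.3 CPM in NA10hd and 86.1, 111, 82.8 and 79.6 CPM in control HSC. It was lower in all NA10hd libraries, at a log2 fold change of -0.73 (SE 0.23, adjusted p = 0.282 from edgeR). Tet1, which oxidizes methylated cytosine, stood at 17.8 ± 8.29 CPM in NA10hd against 37.1 ± 6.203 CPM in control HSC (SD, n = 4 each) and was separate. SWI/SNF subunits had a median of -0.06 (9 of 19 higher), ABC transporters -0.03 (12 of 29 higher) and Golgi glycosyltransferases 0.10 (24 of 42 higher). With 1 library left out, the median was -0.068 to -0.0027 for SWI/SNF subunits and -0.082 to 0.10 for ABC transporters, whose direction turned. The called members were the ABC proteins Abce1 and Abcf2, which act in translation and were lower (log2 fold changes -0.73 and -0.86), and the galactosyltransferase B4galt1, which was higher (0.82), all by DESeq2 alone.

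**Figure D5:**
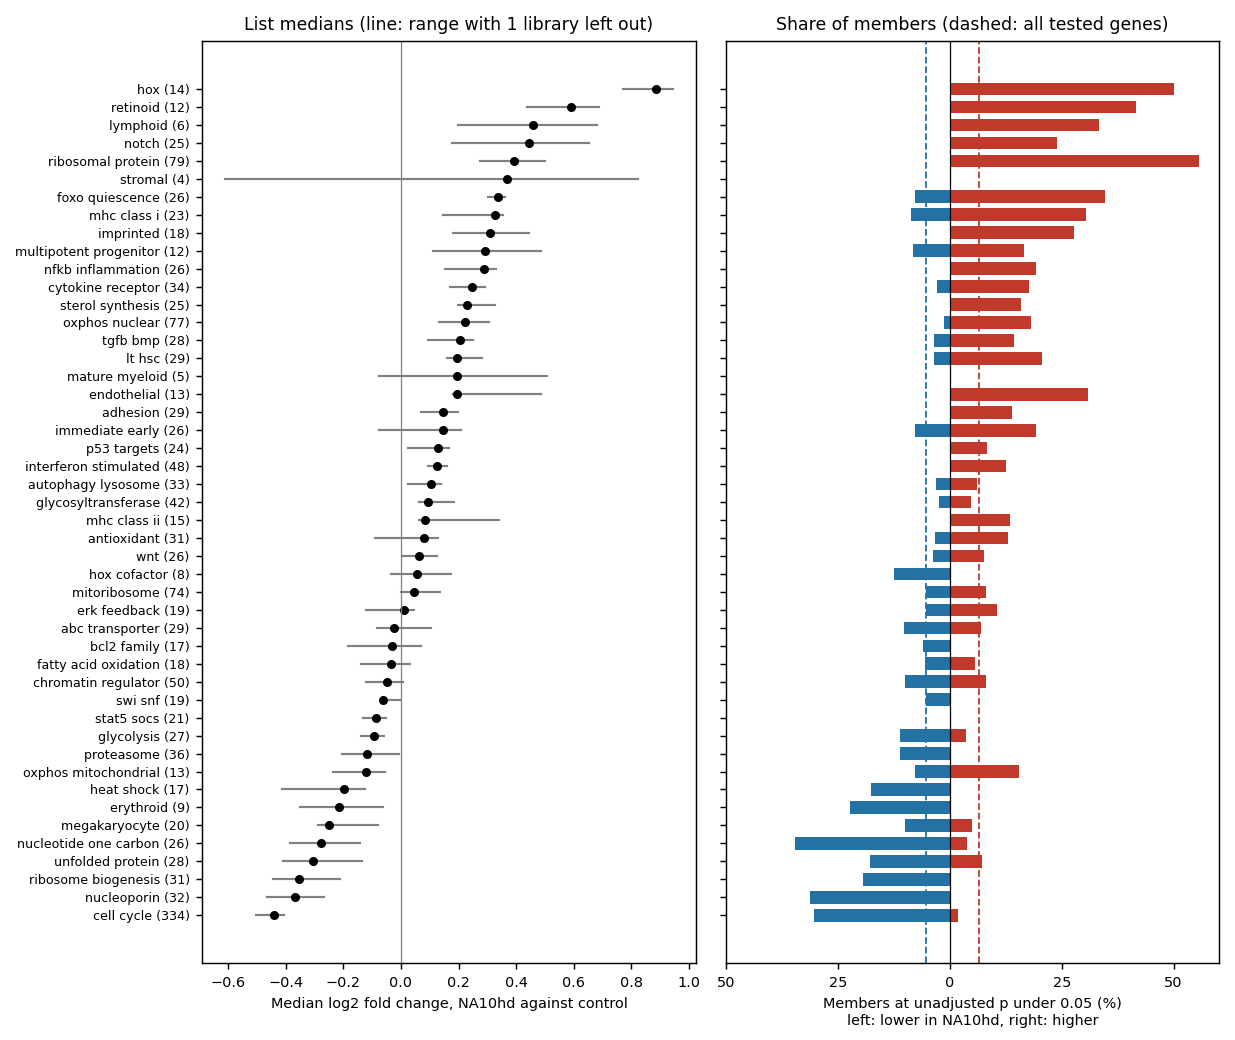
For 47 gene lists with the number of tested members in parentheses, the median log2 fold change with the range when 1 library was left out (left) and the percentage of members at an unadjusted p under 0.05, lower to the left in blue and higher to the right in red (right). Dashed lines mark the 5.26% lower and 6.62% higher over all tested genes, and among the lists that pass them the largest shares are those of ribosomal protein, Hox, retinoid and FoxO genes upward and of nucleotide, nucleoporin and cell cycle genes downward.

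By the annotation's gene type, 192 of 287 tested lincRNAs were higher (66.9%, background 51.5%; median log2 fold change 0.27), as were 121 of 179 processed transcripts (67.6%; 0.33), 6180 of 11795 protein-coding genes (52.4%; 0.03) and 194 of 726 pseudogenes (26.7%; -0.30). The type of processed transcripts also holds genes that make proteins, such as Gfi1. At an unadjusted p under 0.05, 17 lincRNAs were higher and 16 pseudogenes lower, both under the shares over all genes (6.62% and 5.26%). Of the 179 processed transcripts, 15 were higher at that level, above the share over all genes, and 0 were lower. The share of counts on pseudogenes was lowest in NA10hd replicates 1 and 4, as given above, and its part in these values was not tested. Among imprinted genes, 12 of 18 were higher (66.7%, background 51.5%; median 0.31, and 0.18 without NA10hd replicate 4) and DESeq2 called 4 higher (background 0.995%), including the noncoding RNA Meg3 with 69.6, 82.7, 75.7 and 50.4 CPM in NA10hd and 30.7, 16.8, 25.4 and 26.1 CPM in control HSC. All 14 tested Hox genes were higher (median 0.89), their cofactors had a median of 0.05 (8 genes), and of 334 cell cycle genes 261 were lower (median -0.44).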

How the data were processed

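RNA from aliquots of 1000 sorted HSC was amplified to cDNA, made into Nextera XT libraries and sequenced. The authors aligned the reads with HISAT2 to NCBIM37 and deposited raw counts per gene from featureCounts, as named in the submitters' processing notes. The tool versions, the annotation release and the strand setting are not given in the sources used here, so antisense and overlapping genes cannot be told apart. Of the table's value columns, 3 carry no sample and were not used. Groups followed the genotype given in the labels. Depth sets the precision, and limits for a count of 0 (3 counts) cover counting error only.

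Counts were tested with edgeR 4.0.16 (TMM, filterByExpr, quasi-likelihood F-test with Benjamini-Hochberg adjustment) in R 4.3.3. A DEG needed a fold change over 1.5 and an adjusted p below 0.05. DESeq2 1.42.0, the tool of the study's methods, and limma 3.58.1 (voom) were alternatives, beside other filters and size factors, all 3 genotypes in one fit, a replicate block, fewer libraries by sex-linked counts, and each library left out. Fits without NA10hd replicates 1 and 4, or with DESeq2 without replicate 4, were added after seeing the data. The scripts were tested on simulated data.

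Named genes were the DEG, the 14 with the smallest p in each direction whose groups did not overlap and that were outside the cell cycle, Hox and sex-linked lists, the 3 tested members of each list with the smallest p, the genes of the fusion and of the ROSA26 locus, and others said to be picked after their values were seen. Of 50 lists, 49 are reported. The members, lists and rule were chosen with earlier results of these data known. List values are the median over members of log2(CPM + 0.5) minus the mean of control libraries. Gene positions are of NCBIM37, and 37205 of 37991 genes matched the annotation tables. Promoter sequences came from RefSeq (GRCm38.p6). Results for some genes are not reported here.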

Additional observations from a re-analysis of the deposited data

Results flagged for a closer look

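Of 178 groups of 4 libraries examined, 11 held a library whose distance from the nearest of the others, divided by the range of the group, exceeded Dixon's critical value at the 95% level, and chance alone gives about 1 in 20 groups. Among control libraries, replicate 1 had 100.1 CPM of Bcl2 against 87.4 to 89.4 CPM in the other 3 and 15.4 CPM of Neo1 against 25.5 to 27.5 CPM, and replicate 3 had 18.8 CPM of Pip5k1a against 27.0 to 28.4 CPM. Among NA10hd libraries, replicate 4 had 45.7 CPM of Plac8 against 105 to 114 CPM and 143 CPM of Tecpr1 against 89.6 to 95.2 CPM, and replicate 1 had 192 CPM of Ypel3 against 343 CPM in each of the other 3. All of these genes were chosen among those whose groups did not overlap.

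List values also held single libraries far from the others of their group. The erythroid list was at 0.19 in control replicate 4 (-0.04 to -0.003 in the other control libraries) and the Hox list at -0.19 in control replicate 2 (0.05 to 0.09). The ROSA26 locus was at -1.59 in NA10hd replicate 3 (-0.29 to -0.19 in the other NA10hd libraries). The pair of genes that make the fusion was at -0.51 in NA10hd replicate 1 (0.27 to 0.41) and at -0.19 in control replicate 4 (0.05 to 0.08).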

How the results depend on the processing

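The number of DEGs, 1 with edgeR, depended on the tool and the libraries. It was 240 with DESeq2 on its own filter, 266 with DESeq2 without NA10hd replicate 4, 39 with all 3 genotypes in one fit, 8 with at least 10 counts in every library or with no filter, 2 with limma-voom, 4 with NA10hd replicates 2 and 3 only, 0 with only the libraries that had Y-linked and no Xist counts, 0 with the replicate block and 0 to 5 with 1 library left out. Genes at an unadjusted p under 0.05 numbered 1552, 624 with the Y-linked libraries only, 2504 with NA10hd replicates 2 and 3 only and 932 to 1970 with 1 library left out, and 55.7% of them were higher in NA10hd against 44.8% with limma-voom, 43.4% with NA10hd replicates 2 and 3 only, 47.8% with DESeq2 without replicate 4, 48.7% with the replicate block and 48.8% with no filter. Of 3512 values of named genes under other settings 3306 kept direction and call. For list medians, 812 of 882 stayed within the spread of the libraries, which does not require the same direction. Some of these changed sign with 1 library left out, as for the fatty acid oxidation, ABC transporter, immediate early and ERK lists.

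List medians also moved with fewer libraries. With the Y-linked libraries only, list medians were 0.21 (class I), 0.34 (class II), -0.058 (unfolded protein), 0.060 (Bcl2 family), 0.042 (erythroid), -0.10 (myeloid), 0.17 (FoxO), 0.14 (cytokine receptors), -0.24 (nucleoporins), 0.074 (SWI/SNF), -0.078 (nucleotide), 0.23 (retinoid) and -0.31 (cell cycle), and members at an unadjusted p under 0.05 numbered 9 (ribosomal proteins), 5 (FoxO), 3 (nucleoporins), 4 (nucleotide), 2 (Notch) and 3 (Hox), where 2.70% of all genes were higher and 1.94% lower. With NA10hd replicates 2 and 3 only, medians were 0.21 (class I), 0.30 (class II), 0.11 (ribosomal proteins, 15 members), -0.22 (fatty acid), -0.68 (heat shock), 0.076 (endothelial), 0.22 (FoxO, 5 members), 0.031 (TGF-beta), 0.087 (NF-kappaB), -0.48 (nucleotide), -0.15 (antioxidant), -0.31 (immediate early), -0.20 (ERK), 0.17 (ABC) and -1.06 (ROSA26). With DESeq2 without NA10hd replicate 4 they were 0.14 (class I), 0.34 (class II), 0.48 (endothelial), 0.16 (NF-kappaB), -0.080 (antioxidant) and 0.17 (Notch), with 21 ribosomal protein members (background 5.20%). limma-voom gave -0.047 (p53), -0.41 (erythroid), -0.32 (stromal), 0.081 (TGF-beta), 0.066 (adhesion) and -0.24 (ERK), and the 10-count filter 0.29 (class II). The cause of these shifts was not tested.

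With 1 library left out, medians ranged over 0.069 to 0.20 (adhesion), -0.090 to 0.13 (antioxidant), -0.18 to 0.068 (Bcl2 family), 0.18 to 0.49 (endothelial), 0.16 to 0.28 (HSC), -0.077 to 0.51 (myeloid), -0.29 to -0.079 (megakaryocyte), 0.15 to 0.35 (class I), 0.061 to 0.34 (class II), 0.15 to 0.33 (NF-kappaB), 0.18 to 0.65 (Notch), 0.13 to 0.31 (respiratory chain), 0.023 to 0.17 (p53), -0.41 to -0.14 (unfolded protein), -0.41 to -0.12 (heat shock), 0.18 to 0.45 (imprinted), -0.61 to 0.82 (stromal) and 0.094 to 0.25 (TGF-beta), and members at an unadjusted p under 0.05 over 2 to 7 (Hox), 6 to 12 (nucleoporins) and 22 to 63 (ribosomal proteins). Single genes reversed with NA10hd replicates 2 and 3 only: Cdkn1a -0.43, Col1a2 -0.41, Nup98 -0.18, Pim1 -0.12, mt-Cytb -0.10 and mt-Nd1 -0.17. Col1a2 and Nup98 reversed with the Y-linked libraries only (-0.050 and -0.39), without NA10hd replicate 4 (-0.20 and -0.51) and with DESeq2 without it (-0.21 and -0.52), and Nup98 with limma-voom (-0.22), the replicate block (-0.19) and without control replicate 4 (-0.031), with a range of -0.51 to 0.40 when 1 library was left out.

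Deviations of NA10hd and control libraries with the same number correlated at -0.06, -0.04, -0.09 and -0.11. Deviations from a group's own mean cancel out within the group, so these values cannot tell whether the numbers pair the libraries. The replicate block gave 0 DEGs and 1264 genes at an unadjusted p under 0.05, medians of -0.42 (erythroid), 0.45 (myeloid) and 0.11 (TGF-beta) and 4 Hox members (background 4.71%), and no library correlated best with its own number in the other group.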
